A study of Homo sapiens with 26 samples.

Results

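The 33 SNARE genes examined here were chosen by name, not by any measured value, from the 60663 genes counted in RNA-seq. SNARE proteins sit on vesicles and on their target membranes and drive fusion when their helical motifs zip together. In 28 of the 33 the protein is held in the membrane by a hydrophobic segment near its C terminus, a tail anchor. The other 5, YKT6, SNAP23, SNAP25, SNAP29 and SNAP47, have no such segment. YKT6, SNAP23 and SNAP25 are held by lipids and SNAP29 and SNAP47 lack both kinds of anchor. A fusing complex takes a Qa, a Qb, a Qc and an R helix, and a Qbc protein brings the Qb and the Qc helix together. By this scheme the genes comprised 9 Qa-SNAREs (most of the syntaxins), 5 Qb-SNAREs, 6 Qc-SNAREs, 9 R-SNAREs (the VAMPs, SEC22B and YKT6) and 4 Qbc-SNAREs.

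A tail anchor leaves the ribosome only as translation ends. Tail-anchored proteins are therefore released into the cytosol and inserted afterwards, by the GET (TRC40) pathway or by the EMC at the endoplasmic reticulum (ER), and by other routes at the outer mitochondrial membrane (OMM). Proteins with a signal peptide are by contrast brought to the ER while they are being made. Once inserted in the ER, SNAREs travel with vesicles to the Golgi, endosomes, lysosomes and plasma membrane.

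Local translation was followed in HEK293T cells, which derive from human embryonic kidney. A monoclonal knock-in line carries an Avi tag on both copies of RPL29, a large-subunit ribosomal protein. LOV-BirA, a biotin ligase switched on by blue light, marks tagged ribosomes nearby. It was fused to Sec61β at the ER (SFFV promoter), to GFP and the OMP25 transmembrane domain at the OMM (EF1α promoter), or left in the cytosol (EF1α promoter), in polyclonal lines made by lentiviral transduction. Cells were treated with cycloheximide (CHX), which stalls elongation, before light. For ribosome profiling 2 lysates per location were each split into total input and streptavidin pulldown, giving 12 libraries. For RNA-seq, whole transcripts attached to labelled ribosomes were recovered at the OMM alone, in WT cells with a negative control gRNA, in an AKAP1 null line and in a LARP4 null line, 2 lysates each, and in WT cells without CHX, 1 lysate, 14 libraries. Each null genotype was 1 monoclonal line, so a genotype cannot be told apart from its clone. The labels do not say that the 2 replicates of a group came from separate cultures, so p-values measure only the spread between these samples, which may be technical.

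The libraries held between 1025114 (mito pulldown 1) and 19539527 footprints in coding sequences, and between 38347615 and 100840544 RNA-seq counts. AKAP1 stood at 114.5 and 119.5 CPM (counts scaled to a common library total) in WT total input and at 32.2 and 20.3 in the AKAP1 null line, and LARP4 at 225.0 and 231.3 CPM against 79.3 and 74 in the LARP4 null line. VIM, expressed in HEK293T, ranged from 441.7 to 624.7 CPM in total input. PAX2 and NES, also looked for as expressed genes, were far lower, at 5.25 to 10.3 and 0.805 to 3.46 CPM. CD3E and INS were at 0, and PTPRC, ALB and GFAP did not exceed 0.466 CPM.

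Sequences of the C-terminal ends show what makes these proteins tail-anchored. The coding sequence of the canonical GENCODE 44 transcript was translated and scanned in windows of 19 residues, and a window counted as hydrophobic from a Kyte-Doolittle mean of 1.6 upwards. Hydrophobic windows that overlapped were merged into 1 segment, so helices close together are not told apart by this count. Each of the 28 tail-anchored members held 1 such segment, with a mean hydropathy between 1.79 (STX17) and 3.99 (STX16) in its most hydrophobic window. In 25 of the 28 no more than 8 residues followed that window, and in STX17, VAMP5 and VAMP7 35, 23 and 11 did. In the 5 members without a tail anchor the highest value was 0.99. The proteins are short, 100 to 355 aa in the tail-anchored members (median 234) and 198 to 419 aa in the other 5. The ends of 8 members are printed below because these genes carry the results: STX10, USE1 and VAMP8 had the highest OMM ratios of whole transcripts, STX4 and BNIP1 the highest of footprints, STX16 and STX17 the lowest of whole transcripts, and SEC22B was low at the ER. Capitals mark the codons of the most hydrophobic window and lower case the rest up to and including the stop codon, 5′ to 3′ on the coding strand (GRCh38).
STX10: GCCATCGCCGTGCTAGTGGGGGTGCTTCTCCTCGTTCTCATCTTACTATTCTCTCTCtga
USE1: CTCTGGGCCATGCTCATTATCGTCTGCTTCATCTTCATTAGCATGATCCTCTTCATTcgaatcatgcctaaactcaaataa
VAMP8: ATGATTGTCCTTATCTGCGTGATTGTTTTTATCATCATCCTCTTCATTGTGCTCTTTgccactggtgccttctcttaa
STX4: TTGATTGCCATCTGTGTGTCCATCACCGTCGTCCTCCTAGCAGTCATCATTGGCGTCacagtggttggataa
BNIP1: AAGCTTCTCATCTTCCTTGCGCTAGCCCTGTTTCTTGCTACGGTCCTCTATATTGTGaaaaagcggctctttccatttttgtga
STX16: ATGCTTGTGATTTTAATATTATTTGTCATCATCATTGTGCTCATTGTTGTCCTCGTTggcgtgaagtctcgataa
STX17: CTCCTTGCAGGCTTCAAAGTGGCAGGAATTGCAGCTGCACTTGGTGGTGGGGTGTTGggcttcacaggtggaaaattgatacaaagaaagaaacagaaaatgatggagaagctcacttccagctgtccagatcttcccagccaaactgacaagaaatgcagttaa
SEC22B: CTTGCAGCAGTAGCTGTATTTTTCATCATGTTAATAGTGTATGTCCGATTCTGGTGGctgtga
All 8 lie within a single exon. They are at chr19:13144410-13144469 on the minus strand for STX10, chr19:17219733-17219813 on the plus strand for USE1, chr2:85581639-85581716 on the plus strand for VAMP8, chr16:31039732-31039803 on the plus strand for STX4, chr5:173163838-173163921 on the plus strand for BNIP1, chr20:58676217-58676291 on the plus strand for STX16, chr9:99968509-99968673 on the plus strand for STX17 and chr1:120157038-120157100 on the minus strand for SEC22B. In STX10 the window ends at the stop codon, and in STX17, a syntaxin of the ER and autophagosomes, 35 codons follow it.

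Not every member could be measured by footprints. A gene was tested at a location when both of its total inputs held 64 or more coding footprints. The ER gave 20 tested members, the OMM 18 and the cytosol 20. STX16, VAMP2, GOSR2 and VTI1B share their ribosome profiling entry with overlapping genes and were not tested there. In the other members the count covers the positions that the authors' counting assigned to the coding sequence and that reads can reach uniquely. These came to 19 nt for STX10 (no footprint in any library), 98 nt for SEC22B, 108 nt for STX8, 145 nt for SNAP23 and 163 nt for USE1, far less than the canonical coding sequence. In BET1 (464 nt) and BNIP1 (863 nt) they came to more than it (357 and 687 nt). Footprints in all exons, which include untranslated parts, served as a second count for these genes.

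Per counted length, and leaving aside the members in shared entries, those with most footprints were VAMP3, an R-SNARE of recycling endosomes, with a median of 203.2 RPKM over the 6 total inputs (171.8 to 225.6), SEC22B, the R-SNARE of ER to Golgi traffic, with 171.1 (149.1 to 204.4), and VAMP7, an R-SNARE of lysosomes, with 162.9 (142.7 to 186.8). Their ranges overlap, so these 3 cannot be ordered. STX12, a Qa-SNARE of endosomes, followed at 103.5 RPKM (92.4 to 112.8), below all 3 in every library, and SNAP29, a Qbc-SNARE of autophagosome fusion, at 76.6 (68.9 to 94.6), with ranges that meet. Most other members lay between 10.9 (VAMP4, 7.52 to 23.4) and 55.6 RPKM (SNAP23, 41.2 to 68.9). SNAP25, the neuronal Qbc-SNARE, reached at most 0.0427 RPKM and VAMP5, known from muscle, at most 3.87. In RNA-seq both also stayed below the minimum, with no more than 0.152 CPM in WT libraries with CHX. SNAP25 reached 0.495 CPM in total input without CHX. No enrichment is given for SNAP25 or VAMP5. VAMP8, an R-SNARE of late endosomes, was uneven: 0.743 to 1.54 RPKM in 5 total inputs and 27.8 in cytosol total 2.

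Enrichment is the log2 ratio of pulldown to total input, each divided by its library's total and given as CPM. In footprints, CPM refers to the coding footprints of the library. On this scale the median of all genes was −0.68 at the ER, −0.38 at the OMM, 0.02 in the cytosol and −0.28 in WT RNA-seq. Under TMM, a scaling that takes most genes as unchanged, these medians were −0.03, −0.06, 0.02 and 0.01. A value below 0 at the ER or OMM therefore means less than the library average, not less than the typical gene, and counts under both scalings are given. Tests were edgeR quasi-likelihood, two-sided, with Benjamini-Hochberg adjustment over all genes tested, and a gene was called at an adjusted p below 0.05.

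At the ER 18 of the 20 SNARE genes tested were depleted and none enriched on library totals, while under TMM 1 was lower and 3 were higher. Of all 7381 genes tested, 72% were depleted and 19.8% enriched on library totals, and 25.4% were lower and 29.2% higher under TMM. The median of the members was −0.57, and 15 of the 20 lay above the median of all genes under either scaling. All 20 were below 0 in both replicates on the scale of library totals. SNAP23, a Qbc-SNARE of the plasma membrane, had the lowest ratio of coding footprints. It had 21.3 and 13 CPM in total input and 4.95 and 6.29 in the pulldown, ratios of −2.11 and −1.05 (fitted −1.65 ± 0.24 SE, edgeR adjusted p = 4.77e-06). Over all exons SNAP23 was at −0.80 (edgeR adjusted p = 8.83e-07) and SEC22B was the lowest, at −1.17 (edgeR adjusted p = 1.13e-07). Relative to the median of all genes SNAP23 stood at −0.97 by coding footprints and at −0.15 by exon footprints, so its distance from the typical gene rests on the 145 nt counted. By coding footprints SEC22B followed, with 39.8 and 42.8 CPM in total input and 21.3 in both pulldowns, and a fitted value of −0.95 ± 0.13 (edgeR adjusted p = 3.61e-06). VTI1A, a Qb-SNARE of the trans-Golgi network, went from 54.1 and 53.5 CPM to 29.2 and 28.8, at −0.89 ± 0.13 (edgeR adjusted p = 7.12e-06). In each of the 3 genes both pulldowns were below both total inputs, and by coding footprints SNAP23 alone was also lower under TMM (edgeR adjusted p = 0.00302). SEC22B and VTI1A were at −0.30 and −0.25 under TMM, with edgeR adjusted p = 0.0657 and 0.127. Without ER replicate 1 the count of depleted members was 9.

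**Figure D1:**
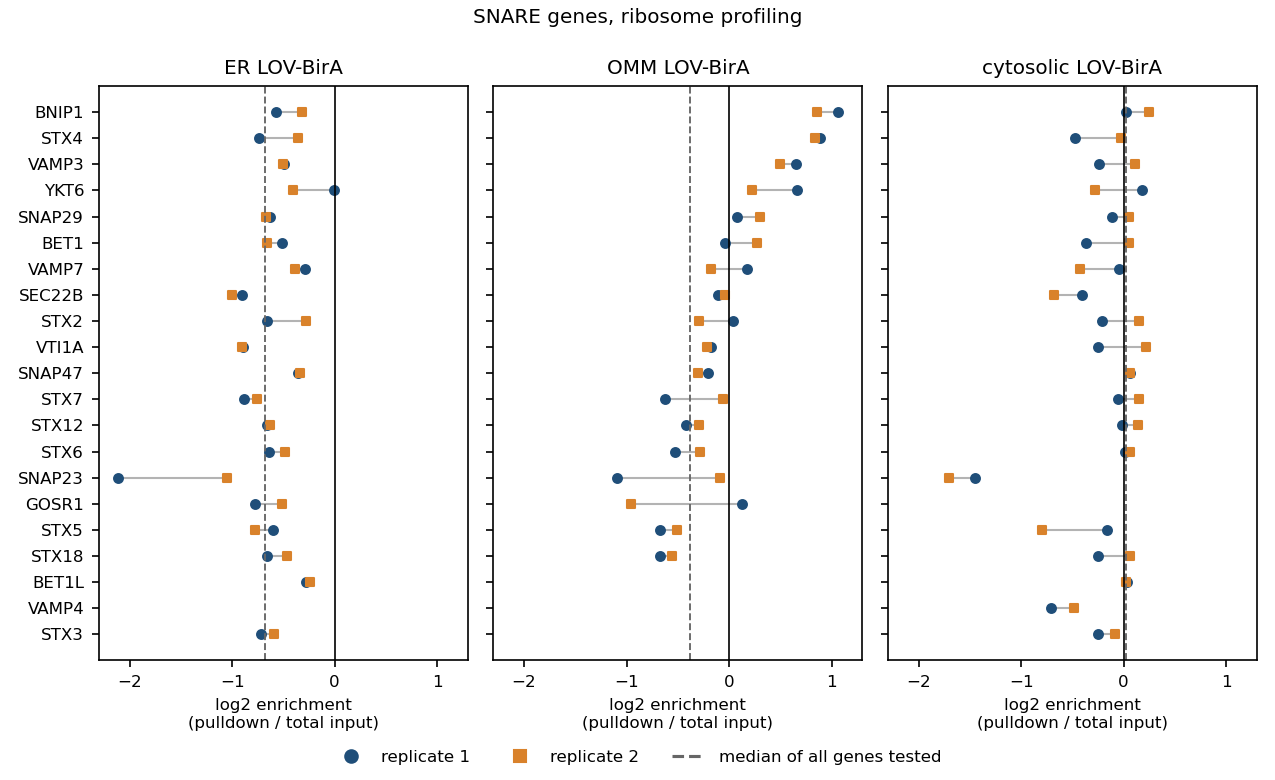
Log2 ratio of footprints in pulldown to total input for each SNARE gene tested at 1 or more locations, with a point per replicate; the dashed line is the median of all genes tested at that location. At the ER all members lie below 0 but cluster around the dashed line at −0.68 (near 0 under TMM), at the OMM BNIP1, STX4 and VAMP3 lie above 0 in both replicates, and in the cytosol SNAP23 stands apart at −1.45 and −1.70.

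By role, the Qbc-SNAREs spread furthest at the ER, from −1.65 to −0.36, and the R-SNAREs ranged from −0.95 to −0.19. The 7 Qa-SNAREs tested ranged from −0.82 (STX7, of late endosomes) to −0.49 (STX2, of the plasma membrane) and all 7 were called lower. STX5, the Qa-SNARE of the Golgi, stood at −0.68, STX3 and STX4 of the plasma membrane at −0.67 and −0.57, STX18 of the ER at −0.57 and STX12 at −0.65. Of the Qb-SNAREs, GOSR1 of the Golgi stood at −0.66 and BNIP1 of the ER at −0.45. Among the Qc-SNAREs, STX6 of the trans-Golgi network was at −0.56 and BET1 of ER to Golgi traffic at −0.57, both called lower, and BET1L at −0.26 did not pass (edgeR adjusted p = 0.17). The R-SNAREs VAMP3 and VAMP7 were at −0.49 and −0.34. YKT6, the lipid-anchored R-SNARE, was the closest to 0 at −0.19 ± 0.15, with ratios of −0.01 and −0.41 (edgeR adjusted p = 0.235), and SNAP29 and SNAP47 stood at −0.65 and −0.36. The members higher under TMM were YKT6 (0.46), VAMP7 (0.31) and SNAP47 (0.29), of which VAMP7 alone has a tail anchor. STX2, STX4, STX6, STX18, VAMP3, BET1 and BNIP1, lower on library totals, lay between 0.07 and 0.20 under TMM and were not called there. The 16 tail-anchored members had a median of −0.57 and the 4 without a tail anchor one of −0.50. The difference between these 2 groups was not tested.

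Lists of related genes, chosen with earlier results of these data known, show where the SNAREs stood. The p24 family, mostly cargo receptors of the same vesicles that have a signal peptide, had a median of 1.88 at the ER. Of its genes 7 of 8 were enriched, and TMED8 stood at −1.24. The factors that insert tail anchors, of which several are themselves ER membrane proteins, had a median of 0.61, with 8 of 15 enriched and 5 depleted. Other tail-anchored proteins of the ER stood at −0.79 (1 of 10 enriched, 8 depleted) and those of the OMM at −0.63 (0 of 9 enriched, 7 depleted), near the SNAREs. The enriched ER gene was SEC61B, at 0.70, whose sequence is in the ER LOV-BirA fusion. With the OMP25 fusion SEC61B stood at 1.46 in footprints at the OMM and at 1.64 in WT RNA-seq. Whether its sequence in the ER fusion adds to the ER value was not tested. The fusion machinery that acts on SNAREs but has no membrane anchor, such as NSF, the α-SNAP family and the Sec1/Munc18 proteins, was at −0.94 (0 of 15 enriched, 13 depleted). The 7 enriched p24 genes ranged from 1.69 to 2.09, while the highest SNARE value was −0.19. Under TMM the medians were 0.08 for the SNAREs, 2.53 for the p24 family (7 of 8 higher, 1 lower) and 1.26 for the insertion factors (11 of 15 higher, 1 lower). For other ER tail-anchored proteins the TMM median was −0.14 (2 of 10 higher, 2 lower), for those of the OMM 0.02 (2 of 9 higher, 0 lower) and for the fusion machinery −0.29 (2 of 15 higher, 6 lower).

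**Figure D2:**
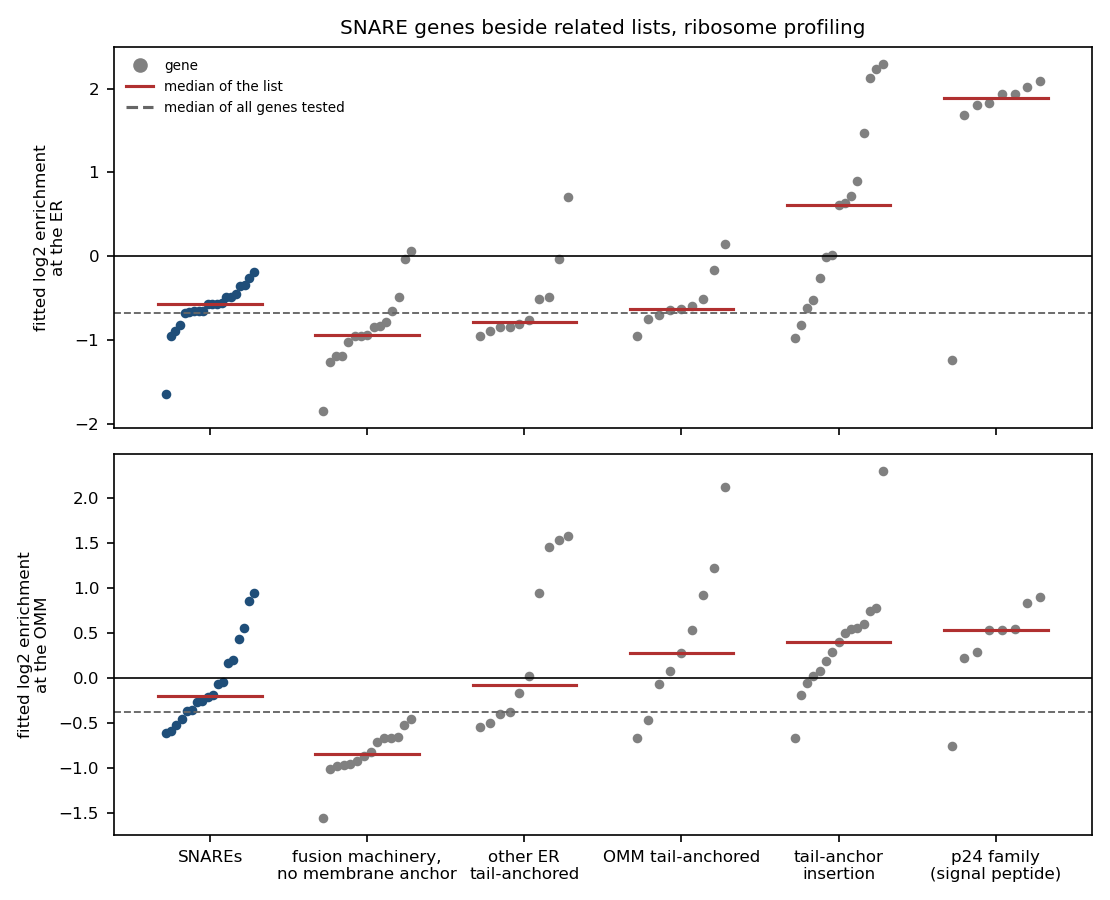
Fitted log2 enrichment of footprints at the ER (top) and at the OMM (bottom) for the SNARE genes and 5 lists, scaled by library totals; each point is a gene, the red bar is the median of its list and the dashed line the median of all genes tested (near 0 under TMM). At the ER the SNAREs (median −0.57) lie with the other tail-anchored proteins and far below the p24 family (1.88), and at the OMM some reach the upper range while the fusion machinery (−0.84) stays below 0.

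At the OMM the SNAREs spread further. BNIP1, STX4 and VAMP3 were enriched and STX18 and STX12 depleted, 3 and 2 of 18 members tested, where 17% of all 6728 genes were enriched and 46% depleted. Under TMM 6 members were higher and none lower, against 25.8% and 24.4% of all genes. The median of the members was −0.20 and 14 of 18 were above the median of all genes. BNIP1, a Qb-SNARE of retrograde traffic to the ER, went from 57 and 62.6 CPM in total input to 119.0 and 113.3 in the pulldown, ratios of 1.06 and 0.86 (0.95 ± 0.14, edgeR adjusted p = 1.59e-05). STX4, the Qa-SNARE of the plasma membrane in most cells, went from 24.7 and 33.1 CPM to 45.8 and 59, ratios of 0.89 and 0.84 (0.86 ± 0.19, edgeR adjusted p = 0.000745). VAMP3 went from 85.7 and 101.3 CPM to 134.6 and 142.9, ratios of 0.65 and 0.50 (0.56 ± 0.13, edgeR adjusted p = 0.000996). In these 3 genes both pulldowns exceeded both total inputs, and the calls held under TMM and with either replicate left out.

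The depleted members changed with the setting. STX18, the Qa-SNARE that pairs with BNIP1 at the ER, had ratios of −0.67 and −0.56 (−0.61 ± 0.22, edgeR adjusted p = 0.0247) and STX12 ones of −0.42 and −0.29 (−0.35 ± 0.11, edgeR adjusted p = 0.00949). Under TMM they stood at −0.29 and −0.03 and neither passed (edgeR adjusted p = 0.278 and 0.823). With either mito replicate left out neither passed, with edgeR adjusted p from 0.069 to 0.173. Mito pulldown 1 was the shallowest library, with 9 (SNAP23) to 152.3 (STX12) footprints for a tested member.

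The other members tested at the OMM were not called. YKT6 had ratios of 0.66 and 0.22 (0.43 ± 0.19, edgeR adjusted p = 0.0641) and passed under TMM (0.74), as did SNAP29 (0.20, under TMM 0.52) and BET1 (0.17, under TMM 0.49). VAMP7 and SEC22B were near 0, at −0.04 and −0.06. STX2, VTI1A, SNAP47, STX7, STX6 and SNAP23 lay between −0.19 and −0.45. GOSR1 and STX5 were at −0.52 and −0.59, and the 2 replicates of GOSR1 disagreed in sign, 0.13 and −0.96. The 4 members without a tail anchor had a median of −0.03 and the 14 with one −0.20. Of the lists, the fusion machinery was at −0.84 (0 of 14 enriched, 13 depleted), the insertion factors at 0.40 (9 of 15 enriched, 1 depleted), the p24 family at 0.53 (7 of 8 enriched, 1 depleted), other ER tail-anchored proteins at −0.08 (4 of 10 enriched, 3 depleted) and OMM tail-anchored proteins at 0.28 (4 of 9 enriched, 1 depleted). Under TMM 12, 7, 4 and 5 genes of the last 4 lists were higher and 10 of the 14 genes of the fusion machinery lower. The 3 enriched SNAREs reached values within the range of OMM tail-anchored proteins, which went from −0.66 to 2.12.

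Counting all exons brought in members whose coding sequence gave too few positions. With 24 members tested at the OMM, 7 were enriched and 4 depleted, where 16.5% and 49% of all genes were. The highest was USE1, a Qc-SNARE of the ER that works with STX18 and BNIP1, at 1.07 ± 0.16 (edgeR adjusted p = 1.42e-05), from 208.0 and 184.0 exon footprints in total input and 89 and 177.0 in pulldowns with far lower totals. STX10, a Qc-SNARE of the trans-Golgi network, was next at 1.05 ± 0.14 (edgeR adjusted p = 6.19e-06), ahead of BNIP1 at 0.93 and STX8, a Qc-SNARE of late endosomes, at 0.54. STX4 and VAMP3 stood lower on this count, at 0.42 and 0.40, and YKT6 passed at 0.27. The depleted members were STX18, STX6, STX5 and STX12, from −0.50 to −0.35. At the ER the exon count gave 23 of 25 members depleted and none enriched (72% and 20.9% of all genes), with STX10 at −0.63, USE1 at −0.46, STX17 at −0.63 and STX8 at −0.18, the last not called. YKT6 and BET1L, not called at the ER by coding footprints, were lower on this count. They stood at −0.35 (edgeR adjusted p = 0.00121) and −0.48 (edgeR adjusted p = 0.00177). Exon counts also take in positions outside the coding sequence, and the part of these in the values was not tested.

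The 4 members in shared entries have only pooled values. The entry of STX16 had ER ratios of −1.06 and −0.86, that of VAMP2 −0.90 in replicate 1 and a lower one in replicate 2, and that of GOSR2 −0.77 and −0.37. The entry of VTI1B, a Qb-SNARE of late endosomes, was the exception at 1.74 and 1.68 at the ER and 1.09 and 0.61 at the OMM. It also counts RDH11, an ER membrane protein, and footprints of VTI1B and RDH11 cannot be told apart there.

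The difference between ER and OMM was tested in its own contrast, to ask whether SNARE mRNAs favour either surface. All 10 members with a called difference were lower at the ER than at the OMM, of 18 tested, where 31.1% of all 6675 genes were lower and 18.6% higher, and under TMM 4 were lower (14.2% of all genes) and none higher (22.7%). The median difference was −0.58, against −0.28 for all genes. STX4 differed by −1.43 ± 0.24 (edgeR adjusted p = 6.33e-05), BNIP1 by −1.40 ± 0.18 (edgeR adjusted p = 2.98e-06) and VAMP3 by −1.06 ± 0.17 (edgeR adjusted p = 3.23e-05), and these 3 and SNAP29 (−0.86, edgeR adjusted p = 0.000136) were the 4 that also passed under TMM. SNAP23 (−1.20 ± 0.43), SEC22B (−0.88), BET1 (−0.74), VTI1A (−0.68), YKT6 (−0.61) and STX7 (−0.55) passed on library totals only. The value of SNAP23 rests on the 145 nt counted, and over all exons its difference was −0.62 (edgeR adjusted p = 0.00344). STX18, at 0.04, was the single member above 0 by coding footprints on library totals. Under TMM STX2, STX5, STX6, STX12, VAMP7, GOSR1 and SNAP47 were also above 0, none of them called.

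The headers of the ribosome profiling files name several data folders, and the labels do not say whether a folder is a sequencing batch. ER replicate 2 and mito replicate 2 came from the same folder. Within it all 10 called members were lower at the ER, by −0.63 (YKT6) to −1.20 (STX4), and 15 of 18 members were. The calls already used these libraries, so this is not a separate check. The share of all genes within the folder was not computed. With both replicates the median difference of all genes was itself below 0, at −0.28. ER replicate 1 and mito replicate 1 came from different folders, so folder and location cannot be told apart between them. Without mito replicate 2 the count of lower members was 4, and without ER replicate 2 it was 6. The p24 family went the other way, with a median difference of 1.34, while the median was −0.70 for other ER tail-anchored proteins and −0.92 for OMM tail-anchored proteins. With all exons 14 of 24 members were lower, an alternative chosen after the data were seen. The share of all genes in that contrast is not given here, so this count cannot be set against the general shift.

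**Figure D3:**
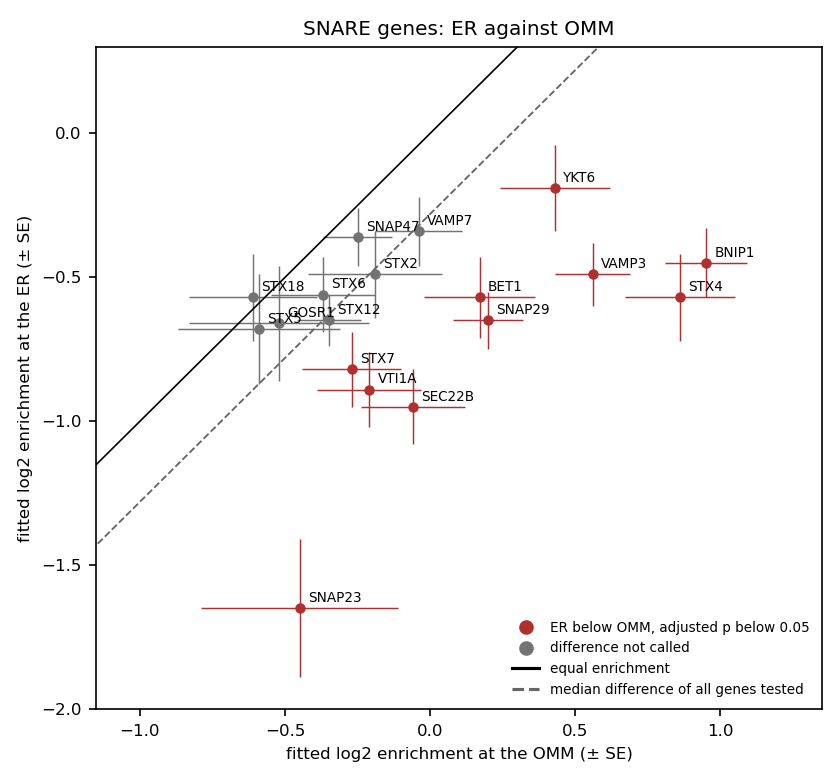
Fitted log2 enrichment of footprints at the ER (vertical) against that at the OMM (horizontal) for the 18 SNARE genes tested at both, scaled by library totals, with standard errors. Red points are the 10 genes lower at the ER in the test of the difference. All 10 lie to the right of the dashed line, the median difference of all genes. STX4, BNIP1, VAMP3 and SNAP29 are the 4 that were also lower under TMM.

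In the cytosol, the control for labelling away from membranes, SNAREs stayed near 0. Of 20 tested members 2 were depleted and none enriched, where 5.96% of all 7162 genes were depleted and 2.02% enriched, and the median was −0.07. SNAP23 had 23.4 and 17.2 CPM in total input and 8.56 and 5.28 in the pulldown, ratios of −1.45 and −1.70 (−1.54 ± 0.24, edgeR adjusted p = 0.000317). Over all exons SNAP23 was at −0.11 (edgeR adjusted p = 0.52; 3.58% of all genes enriched and 6.84% depleted on that count), so its value rests on the 145 nt of coding sequence counted. SEC22B stood at −0.53 ± 0.13 (edgeR adjusted p = 0.0194), with ratios of −0.41 and −0.68, and at −0.90 over all exons (edgeR adjusted p = 0.000111). Without cytosol replicate 2 SEC22B did not pass (−0.41, edgeR adjusted p = 0.0965). The pulldown and total input of cytosol replicate 1 came from different data folders, and replicate 2, from a single folder, gave −1.70 for SNAP23 and −0.68 for SEC22B. Both genes were thus low in pulldowns of more than 1 location. The remaining members ranged from −0.59 (VAMP4) to 0.13 (BNIP1), none of them called.

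RNA-seq of whole transcripts measured 31 members at the OMM, including those out of reach of footprints. In WT cells 9 were enriched and 13 depleted, where 20.2% of all 13856 genes were enriched and 45.6% depleted, and under TMM 16 and 8 were, against 31% and 27.8%. The median was −0.02, and 19 of 31 members were above the median of all genes, −0.28. STX10 had the highest value. It stood at 21.7 and 23 CPM in total input and 56.3 and 58.4 in the pulldown, ratios of 1.37 and 1.34 (1.36 ± 0.11, edgeR adjusted p = 2.52e-05). USE1 went from 12.5 and 13.3 CPM to 29.3 and 31.8, ratios of 1.23 and 1.25 (1.24 ± 0.13, edgeR adjusted p = 8.39e-05). VAMP8, a sparse transcript, went from 1.36 and 1 CPM to 2.83 and 2.41, ratios of 1.06 and 1.27 (1.16 ± 0.23, edgeR adjusted p = 0.00246), and did not pass without WT replicate 2 (edgeR adjusted p = 0.0556). STX8 (1.03), STX4 and BNIP1 (0.78 each), YKT6 (0.37), BET1 (0.28) and VTI1B (0.27) were the other enriched members. In each of these 9 both pulldowns were above both total inputs. Without WT replicate 2 the count of enriched members was 5 and without WT replicate 1 it was 6.

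The depleted members were led by STX16, the Qa-SNARE of the trans-Golgi network. It went from 119.5 and 89.8 CPM to 55.6 and 44.4, ratios of −1.10 and −1.02 (−1.06 ± 0.12, edgeR adjusted p = 0.000124). STX17 went from 73.5 and 77.9 CPM to 41.3 and 43.1, ratios of −0.83 and −0.85 (−0.84 ± 0.09, edgeR adjusted p = 8.3e-05). VAMP4, an R-SNARE of the trans-Golgi network, went from 26 and 21.7 CPM to 13.7 and 13.3, ratios of −0.93 and −0.71 (−0.82 ± 0.12, edgeR adjusted p = 0.00051). In all 3 the pulldowns lay below the total inputs, and the calls held under TMM. STX7 (−0.79), the synaptic vesicle R-SNAREs VAMP2 and VAMP1 (−0.70 and −0.61), STX12 and VTI1A (−0.60 each) and GOSR1 (−0.54) came next, followed by STX6 (−0.50), GOSR2 (−0.40), SEC22B (−0.30) and STX3 (−0.25). Under TMM the last 4 did not pass, nor did VAMP1, and STX3 turned to 0.05. STX16, VAMP2, GOSR2 and VTI1B overlap other genes, and how their shared reads were counted is not given in the sources used here, so their values are uncertain. Members without a call were SNAP47 (0.15), VAMP3 (0.11), STX5 and VAMP7 (0.09 each), STX2, STX18 and SNAP29 (−0.01, −0.01 and −0.02), BET1L (−0.11) and SNAP23 (−0.26).

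By role, 4 of 6 Qc-SNAREs were enriched on library totals (STX10, USE1, STX8 and BET1) and 1 depleted (STX6), with a median of 0.66. Of 9 Qa-SNAREs 1 was enriched and 5 were depleted (median −0.25), of 5 Qb-SNAREs 2 and 3 (−0.40), and of 8 R-SNAREs 2 and 4 (−0.11). None of the 3 Qbc-SNAREs measured was called on library totals (median −0.02), while under TMM SNAP29 (0.27, edgeR adjusted p = 0.0455) and SNAP47 (0.45, edgeR adjusted p = 0.00202) were higher. Under TMM 4 of 6 Qc-SNAREs were higher and 0 lower, and of the Qa-, Qb- and R-SNAREs 4, 2 and 4 were higher and 4, 2 and 2 lower. Differences between roles were not tested. The 27 tail-anchored members had a median of −0.11 and the 4 without a tail anchor one of 0.07. By the step they serve, the 11 members of the ER and Golgi had 4 enriched and 4 depleted, the 12 of the trans-Golgi network, endosomes and lysosomes 4 and 6, and the 6 of the plasma membrane 1 and 3. Under TMM these counts were 6 and 2, 6 and 5, and 2 and 1. The fusion machinery again lay low, with 1 of 25 enriched, 20 depleted and a median of −0.53. The insertion factors had 11 of 17 enriched and 1 depleted (0.42), other ER tail-anchored proteins 5 of 11 and 4 (0.14), OMM tail-anchored proteins 7 of 15 and 5 (0.13), and the p24 family 3 of 9 and 3 (0.21). Among the depleted OMM tail-anchored genes was SYNJ2BP, at −1.14, whose sequence is in the OMM LOV-BirA fusion. Under TMM the fusion machinery had 2 higher and 11 lower, the insertion factors 12 and 0, other ER tail-anchored proteins 7 and 1, those of the OMM 9 and 4 and the p24 family 5 and 2. Across the 18 members measured by both readouts at the OMM, the values by footprints and by whole transcripts had r = 0.74 (Pearson) and rho = 0.61 (Spearman), a description over genes that share libraries, not independent samples. BNIP1 and STX4 were enriched in both readouts. VAMP3 was enriched in footprints and called in whole transcripts under TMM only (0.41, edgeR adjusted p = 0.0116). The difference between readouts was not tested.

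The 31 SNARE transcripts measured range from 679 nt (VAMP8) to 15845 nt (STX7), and their coding sequences from 303 to 1260 nt. Transcript length and the OMM ratio in WT RNA-seq had a Spearman rho of −0.74 across the 31 members and −0.70 across the 12098 of 13856 genes tested that have a length. With coding length rho was −0.04 for the members and −0.56 for all genes. With GC content it was 0.47 and 0.43. These are descriptions over genes that share the same libraries. The 9 enriched members had a median transcript of 1304 nt (679 to 5142), the 13 depleted ones of 4937 nt (2126 to 15845) and the 9 without a call of 2310 nt (1794 to 4259). Split at the members' median of 2767 nt, 8 of the 16 shorter transcripts were enriched and 2 depleted, and of the 15 longer ones 1 was enriched (VTI1B, 5142 nt) and 11 depleted. VAMP8, STX8 (830 nt), USE1 (845 nt), BNIP1 (1168 nt), STX10 (1304 nt) and STX4 (1410 nt) were the shortest 6 of the members measured and held the 6 highest ratios. All genes were then sorted into 10 bins by transcript length. STX10, at 1.36, lay between the quartiles of its bin, 0.50 and 1.39, as did USE1, VAMP8, STX8 and BNIP1. STX4 (upper quartile 0.60), YKT6 (0.20), SNAP29 (−0.22) and VTI1B (−0.33) lay above theirs, as did STX3 and SEC22B (both −0.44), which were called depleted. VAMP2 and SNAP23 (lower quartile −0.20 for both), VAMP1 (−0.37), STX12 (−0.51) and STX16 (−0.82) lay below theirs. Among footprints at the OMM rho with transcript length was −0.29 for the 18 members and −0.54 for all genes.

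**Figure D4:**
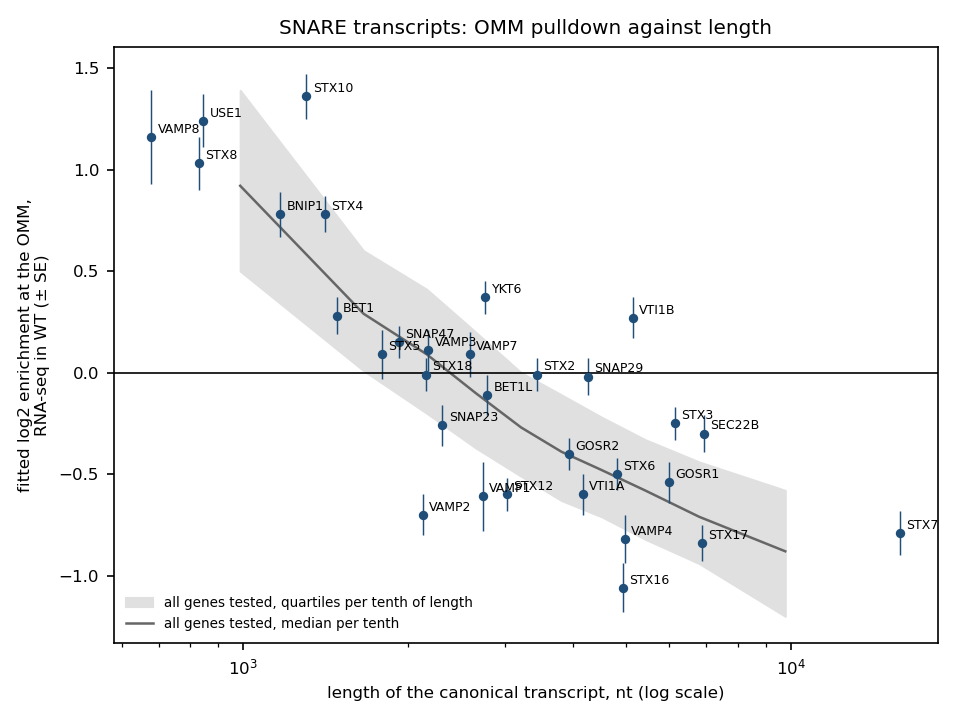
Fitted log2 enrichment of whole transcripts at the OMM in WT cells, scaled by library totals, against the length of the canonical transcript (log scale) for 31 SNARE genes with standard errors; the line and band are the median and quartiles of all genes tested in 10 bins of length. The 6 shortest SNARE transcripts have the highest values, STX16 is lowest at −1.06, and VTI1B lies above the band at 5142 nt.

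AKAP1 is an OMM protein that binds mRNA, and the null line asks whether OMM ratios differ without it. The change of the ratio from WT to AKAP1 null was called lower for 4 of 31 members (STX10, USE1, STX8 and VTI1B) and higher for STX12, where 7.96% of all genes were lower and 6.52% higher. Under TMM 6 were lower and none higher, against 10.3% and 2.06% of all genes, and the median change of all genes moved from 0.19 to 0.01. STX10 had ratios of 1.37 and 1.34 in WT and 0.53 and 0.21 in AKAP1 null cells, a change of −0.99 ± 0.15 (edgeR adjusted p = 0.0035). USE1 went from 1.23 and 1.25 to 0.55 and 0.06 (−0.94 ± 0.18, edgeR adjusted p = 0.0125), and STX8 from 0.91 and 1.14 to 0.31 and 0.15 (−0.80 ± 0.19, edgeR adjusted p = 0.0285). VTI1B turned from 0.26 and 0.28 to −0.14 and −0.46 (−0.58 ± 0.14, edgeR adjusted p = 0.0287). In all 4 the null ratios lay below both WT ratios. VAMP8 (−1.10 ± 0.35) and BNIP1 (−0.53 ± 0.16) were the 2 added under TMM, with edgeR adjusted p = 0.0691 and 0.0586 on library totals. The ratio of STX12 went from −0.65 and −0.55 to −0.18 and −0.15 (0.43 ± 0.12, edgeR adjusted p = 0.0412), and was not called under TMM (0.26, edgeR adjusted p = 0.298).

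These AKAP1 calls rest on few libraries. With either WT replicate left out none of the 31 members was called lower, and STX10 had edgeR adjusted p = 0.0557 and 0.0569. Without AKAP1 null replicate 2 STX10 alone was lower, and without AKAP1 null replicate 1 there were 3. STX12 was lost whichever replicate was left out. The members not named in this comparison so far ranged from −0.47 (VAMP1) to 0.46 (STX7). STX4, enriched in WT at 0.78, was still at 0.48 in AKAP1 null cells, a change of −0.30 (edgeR adjusted p = 0.135). The Qc-SNAREs held 3 of the 4 lower members, with a median change of −0.53. Across members the change had a Spearman rho of 0.61 with transcript length, and across all genes 0.54. It shares the WT libraries with the WT ratio, so both relations are not independent. Among the lists, 4 of 11 other ER tail-anchored genes, 5 of 15 OMM tail-anchored genes, 3 of 17 insertion factors and 0 of 25 genes of the fusion machinery were lower, and under TMM 4, 5, 5 and 0 were.

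**Figure D5:**
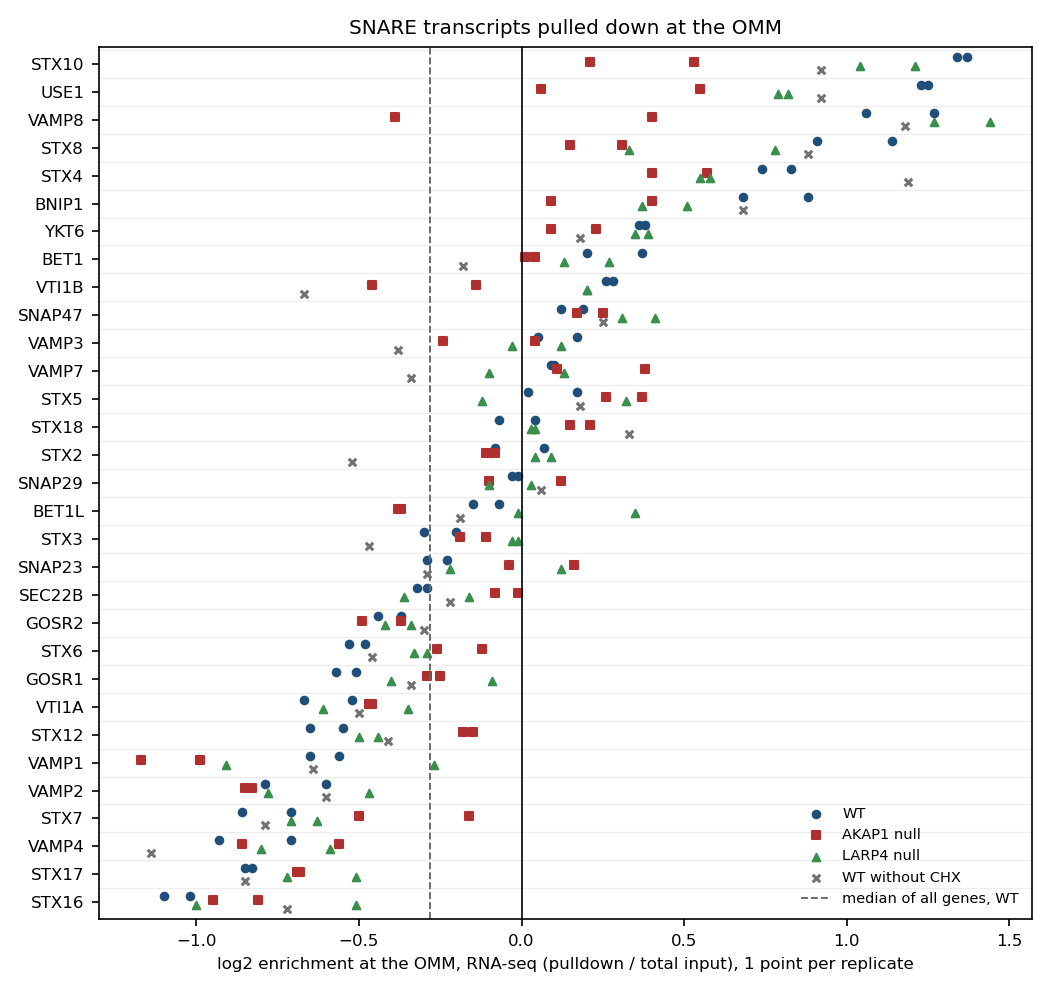
Log2 ratio of CPM in OMM pulldown to total input, scaled by library totals, for 31 SNARE genes in WT, AKAP1 null and LARP4 null cells with CHX (2 replicates each) and in cells without CHX (1 replicate, drawn as WT). Genes are ordered by their WT value and the dashed line is the median of all genes in WT (near 0 under TMM). For STX10, USE1, STX8 and VTI1B the AKAP1 null points lie left of both WT points, while for STX12 they lie to the right.

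LARP4 is an mRNA-binding protein that acts in mRNA stability. In the LARP4 null line edgeR called no change of the ratio for any member, and of all genes 0% changed either way. Before adjustment p was below 0.05 for 2 members, STX8 (−0.47) and USE1 (−0.44), beside 16.4% of all genes, and DESeq2 also called 0 after adjustment and 5 without. STX10 kept ratios of 1.21 and 1.04, and VAMP8 1.27 and 1.44. Without LARP4 null replicate 1, 4 members were called higher and 2 lower, beside 32.6% and 8.24% of all genes, so that library decides the count. In total input no member was called different between genotypes. In the AKAP1 null line 0% of all genes were called either way, and 0 members had an unadjusted p below 0.05 by edgeR or DESeq2. In the LARP4 null line 0.00715% of genes were called each way, with VAMP2 alone below an unadjusted 0.05 by edgeR, and VAMP2 and VAMP8 by DESeq2. VAMP8 in LARP4 null total input stood at 7.28 CPM in replicate 1 and 0.704 in replicate 2, so its level differed more between replicates than between genotypes. AKAP1 itself, at −2.15 ± 0.22 in total input of the AKAP1 null line, was not called (edgeR adjusted p = 0.242). LARP4, at −1.56 ± 0.12 in total input of the LARP4 null line, was called (edgeR adjusted p = 0.0405). With 2 replicates the AKAP1 test thus missed even its targeted gene, and the lack of calls says little about the SNAREs.

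Without CHX the single lysate gave values for the same 31 members, with no test. By the study's methods cells without CHX also had a shorter pulse of biotin and light. The title of this lysate names no genotype or gRNA, so its cells may differ from the WT cells as well. CHX, labelling time and any difference in cells cannot be told apart. The median of the lysate was −0.30, and 25 members had the same sign as the WT mean with CHX. Of the members 12 were below both WT replicates, 12 above both and 7 between them. STX4 was the highest, at 1.19 against 0.74 and 0.83 with CHX, and VAMP8 followed at 1.18. STX10 and USE1 were lower, both at 0.92, and STX8 was at 0.88 and BNIP1 at 0.68. VTI1B and BET1, enriched with CHX, turned below 0, at −0.67 and −0.18, as did VAMP3 (−0.38) and VAMP7 (−0.34). STX18 and SNAP29 turned above 0, at 0.33 and 0.06. The 6 shortest transcripts measured (VAMP8, STX8, USE1, BNIP1, STX10 and STX4) were above 0 in this lysate too.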

How the data were processed

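Ribosome profiling was done in 12 libraries and RNA-seq in 14. For the footprints the authors deposited estimated counts per gene region and RPKM values: adaptors were removed with FastX, rRNA and tRNA reads with Bowtie, reads were mapped with TopHat to GRCh38 (Ensembl positions per the file headers), and alignments of 27 to 36 nt (per the file headers) were counted with plastid, which spreads each footprint over its central positions, ignores 13 nt at each end and leaves out positions that are not unique. RPKM was divided by counted length and by all reads on annotated transcripts. For RNA-seq the authors deposited whole counts per gene from STAR and featureCounts. The labels name polyA RNA and the study's methods an rRNA depletion, so the RNA selection is uncertain.

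Here estimated counts were rounded and tested with edgeR 4.0.16 (quasi-likelihood, R 4.3.3, limma 3.58.1), with a term per lysate and a pulldown effect per condition. Library totals set the scale, and TMM was used for total inputs against each other. Footprint tests needed 64 counts in every total input of the locations compared, and RNA-seq tests a mean of 64 over the libraries fitted with CHX (12, or the total inputs alone), so VAMP8 was tested with 52 and 46 counts in WT total input. P-values were two-sided and adjusted over all genes tested, with a threshold of 0.05. Alternatives were TMM, DESeq2 1.42.0, no lysate term, a minimum of 10, footprints in all exons, the 4 libraries of a location alone and each replicate left out. The fits were tested on simulated data. Pulldown and total input of the same number came from 1 lysate, and their deviations from the group means correlated between 0.59 and 0.88. Entries of several genes (1079 of 58849) held 5.86 to 8.56% of coding footprints and were not tested. Counts limit the precision: mito pulldown 1, with 1025114 coding footprints, is the shallowest library. Transcripts and tails came from GENCODE 44 (GRCh38), read with Python 3.11.15.

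Every member is named. Full statistics go to the 3 highest and 3 lowest members of a comparison among those called with the same sign in both replicates, and to others where a result turns on them, chosen after their values were seen. The members and lists were chosen with earlier results of these data known.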

Additional observations from a re-analysis of the deposited data

Results flagged for a closer look

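For 10 SNARE genes the enrichment of footprints differed between the ER and the OMM in the test of the difference itself (edgeR, ER minus OMM, library totals). The log2 differences were −1.43 for STX4, −1.40 for BNIP1, −1.20 for SNAP23, −1.06 for VAMP3, −0.88 for SEC22B and −0.86 for SNAP29. Those of BET1 (−0.74), VTI1A (−0.68), YKT6 (−0.61) and STX7 (−0.55) were smaller. Over all exons the difference of SNAP23 was −0.62. On library totals 31.1% of all 6675 genes tested were lower at the ER than at the OMM and 18.6% higher. Under TMM STX4, BNIP1, VAMP3 and SNAP29 passed, where 14.2% of all genes were lower and 22.7% higher.

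For 5 SNARE genes the OMM ratio of whole transcripts differed between AKAP1 null and WT cells, again by the test of the difference (edgeR, null minus WT). STX10 changed by −0.99, USE1 by −0.94, STX8 by −0.80 and VTI1B by −0.58. STX12 changed by 0.43, and did not pass under TMM. Of all 13856 genes tested, 7.96% were lower and 6.52% higher on library totals. Without the lysate term 0 members were called lower and 0 higher. VTI1B overlaps other genes, so its value is uncertain. Both comparisons rest on 2 replicates per group, too few to look for outlying samples.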

How the results depend on the processing

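Among the 23 values chosen for full statistics none changed sign, and of their 181 alternatives 136 kept the call and 45 lost it. Other called members did change sign under TMM: VAMP7 and SNAP47 at the ER went from lower (−0.34 and −0.36) to higher (0.31 and 0.29), STX2, STX4, STX6, STX18, VAMP3, BET1 and BNIP1 there from lower to above 0 without a call, and STX3 in WT RNA-seq from −0.25 to 0.05. Counts of called members moved more. Shares of all genes stand with the results above for library totals and TMM. For the other settings they are mostly not given, so those counts show only how the calls depend on the setting. Under TMM there were 3 higher and 1 lower at the ER (0 and 18 on library totals), 6 higher and 0 lower at the OMM (3 and 2), 4 lower at the ER than at the OMM (10), 16 higher and 8 lower in WT RNA-seq (9 and 13), and 0 higher in AKAP1 null cells (1). DESeq2 gave 1 lower at the ER, 5 higher and 0 lower at the OMM, 1 lower in the cytosol (2), 4 lower at the ER than at the OMM, 14 higher and 7 lower in WT RNA-seq, and 0 higher in AKAP1 null cells.

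The main design keeps the lysate as a replicate block. Without the block, 6 were lower at the ER, 1 higher and 0 lower at the OMM, 0 lower in the cytosol, 2 lower at the ER than at the OMM, and 0 higher and 0 lower in AKAP1 null cells. Numbers shared between genotypes do not mark a shared lysate, and for total inputs the fit with the replicate block changed no call (0). Footprints in all exons gave 7 higher and 4 lower at the OMM and 1 lower in the cytosol, the cytosol's own 4 libraries gave 1 lower, and a minimum of 10 counts gave 0 higher in AKAP1 null cells.

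With a replicate left out, 9 to 16 members were lower at the ER, 0 to 1 lower at the OMM, 1 to 3 lower in the cytosol, 4 to 8 lower at the ER than at the OMM, 5 to 6 higher in WT RNA-seq, 0 higher and 0 to 3 lower in AKAP1 null cells, and 0 to 4 higher and 0 to 2 lower in LARP4 null cells. The lone sample left is then assumed to vary like the other groups. STX10, STX8, USE1, STX17, VAMP8 and VAMP1 had too few coding footprints for a test. For STX10 the counted length is the limit, since it had 0 coding and 731.0 exon footprints in ER total 1.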
